A study of Mus musculus with 28 samples.

Results

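Mitosis and cytokinesis genes were followed through RNA-seq libraries of mouse embryonic fibroblasts (MEFs) transformed with RAS and DNP53. The set held 46 genes, found by their gene symbols among the 24079 rows of the count table, and all 46 passed the filter on low counts. They were taken in 8 roles: mitotic kinases and cyclins, transcription factors, the spindle checkpoint with the anaphase-promoting complex, centromere and kinetochore, the chromosomal passenger complex, kinesins and spindle factors, cytokinesis, and the chromosome surface protein Ki-67. The 28 libraries came from a study of cyclin D1 and procaspase 3. Clones 12 and 14 carried a tagged cyclin D1, with FLAG and HA as the tag epitopes that siRNAs were aimed at, and clones 18 and 25 carried an untagged one. Each tagged clone gave 1 library with each of 3 siRNAs against cyclin D1, called Qiagen, Nature and Life, 1 each with siRNA against FLAG and against HA, 1 with the control siRNA SCR, 1 with leptomycin B at 20 ng/mL and 1 untreated. Each untagged clone gave 1 library with FLAG, HA and SCR siRNA. Lines of clone 18 with a construct named FLAG-mCherry-HA/PURO gave 3 libraries (HA siRNA in 2, FLAG siRNA in 1), and lines with mCherry/PURO gave 3 with the same siRNAs. They are called FLAG-mCherry-HA and mCherry below, and both carry the PURO part that the parental clone lacks in its name. All cells shared the transformation and a C57BL/6x129Sv background, and cells were taken the morning after an overnight treatment. With 2 clones of each kind, clone and tag cannot be separated beyond those 2 clones. What the n of 3 or 4 in each title counts is not stated, so each library was taken as 1 sample. In bulk RNA, fewer mitotic cells and less RNA per mitotic cell cannot be told apart.

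These genes run the last part of the cell cycle. Cyclin B with the kinase CDK1 drives entry into mitosis, kinesins and TPX2 build the spindle, and the checkpoint proteins hold the anaphase-promoting complex back until kinetochores are attached. Separase then cuts cohesin, and PRC1, the kinesins of the central spindle and anillin complete cytokinesis. Transcription of most of them peaks in G2 and mitosis through B-Myb, FOXM1 and the MuvB complex, which binds a promoter element called the cell cycle genes homology region (CHR), often beside CCAAT boxes bound by NF-Y.

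The promoters of the set carried these elements more often than other promoters did. RefSeq (GRCm38.p6) gave a promoter, from 250 bases before to 50 after the first listed start of the gene, for 39 of the 46 genes. On either strand the CHR letters TTTGAA were found in 27 of the 39 (69.2%), against 12.4% of the 11793 promoters of tested genes and 18.1% of all 27025. The letters CCAAT were found in 28 (71.8%), against 38.9% and 37.9%, and both together in 23 (59%), against 5.2% and 7.12%. The motifs can share at most 1 base. The stretches shown are the 100 bases before the start, on the strand of the gene, for 6 genes of mitotic entry, anaphase and the spindle, 3 that passed the cyclin D1 siRNA test given further on and 3 that did not: Cdk1 (chr10:69352913-69353012, minus strand), Espl1 (chr15:102296193-102296292, plus), Ccnb1 (chr13:100786487-100786586, minus), Cdc20 (chr4:118437344-118437443, minus), Kif22 (chr7:127042421-127042520, minus) and Ube2c (chr2:164769829-164769928, plus). For Espl1, whose gene span begins at 102296254, and Kif22, whose span ends at 127042467, the first listed start lies inside the gene. Their stretches thus reach into the gene, and the TTTGAA of Espl1 and TTCAAA of Kif22 lie within it. Capitals mark TTTGAA and CCAAT, or TTCAAA and ATTGG where they lie on the other strand.
Cdk1: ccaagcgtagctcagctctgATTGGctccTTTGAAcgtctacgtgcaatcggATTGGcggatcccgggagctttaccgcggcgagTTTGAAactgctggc
Espl1: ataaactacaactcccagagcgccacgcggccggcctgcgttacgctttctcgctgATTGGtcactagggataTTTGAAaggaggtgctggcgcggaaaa
Ccnb1: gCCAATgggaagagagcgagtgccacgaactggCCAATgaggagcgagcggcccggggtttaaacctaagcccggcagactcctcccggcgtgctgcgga
Cdc20: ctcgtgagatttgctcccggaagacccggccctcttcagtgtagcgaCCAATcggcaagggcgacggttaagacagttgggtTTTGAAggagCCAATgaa
Kif22: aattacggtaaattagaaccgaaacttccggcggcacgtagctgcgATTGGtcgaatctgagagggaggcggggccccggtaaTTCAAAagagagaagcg
Ube2c: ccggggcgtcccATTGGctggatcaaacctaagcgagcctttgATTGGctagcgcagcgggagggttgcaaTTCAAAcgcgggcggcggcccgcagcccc
Of these, Cdk1, Espl1 and Ccnb1 fell with cyclin D1 siRNA, whereas Cdc20, Kif22 and Ube2c did not pass that test. The letters were present in both kinds, and the stretch of Ccnb1 has no TTTGAA.

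Libraries held 26558256 to 81512769 counts, and the least counted gene of the set had between 518 and 2542 counts in each. The SCR library of clone 12 stood apart, with the highest total but counts for the fewest genes, 14132. In 4 libraries more than 2% of counts fell on Rn45s, the ribosomal RNA precursor: Life clone 14 (3.48%), mCherry with HA siRNA REP2 (2.75%), Nature clone 14 (2.42%) and HA clone 12 (2.22%). All 11 fibroblast markers passed 1 CPM (counts scaled to library size) in the median library, with a summed level of 5167 to 12840 CPM. Vim alone ran from 2768 to 8406 CPM. Single markers were near 0 in their lowest library, among them Thy1 (0 to 218 CPM), Col1a2 (0.20 to 2505) and Col1a1 (0.29 to 710). The 5 endothelial markers summed to at most 1.95 CPM and the macrophage markers to at most 6.88 CPM, of which 1 of 5 in the table passed 1 CPM in the median library. The myogenic markers reached at most 13.3 CPM in sum, with Myf5 at 0 in every library. The epithelial markers ranged from 87.4 to 1958 CPM in sum, with Krt18 alone at 86.5 to 1919. The neural markers ranged from 48.8 to 641 CPM in sum, with Nes at 3.88 to 602 and Sox2 at 0 to 97.9. Ccnd1, the gene of cyclin D1, checked the labels: in tagged clones 12 and 14 it stood at 329 and 323 CPM with Qiagen siRNA, 63.8 and 50.1 with Nature, 73.7 and 52.5 with Life, 181 and 131 with FLAG, 222 and 219 with HA, against 1128 and 1287 with SCR. Differences were tested with edgeR's quasi-likelihood test with the clone as a block, over 15099 genes, at a Benjamini-Hochberg adjusted p of 0.05. Nothing states that libraries came from separate cultures, so p-values reflect library spread about each clone's level. A fold change is given as log2 with its standard error (SE), and a value for each clone is the log2 difference within that clone.

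The 46 genes were well expressed in every library. They held between 0.453% and 0.785% of a library's counts. Per kilobase of the longest coding transcript, the median library level was highest for Ccnb1 (99.2 CPM per kb), which encodes cyclin B1, and Ube2c (89 CPM per kb), the ubiquitin-conjugating enzyme of the anaphase-promoting complex. It was lowest for Cenpf, a large kinetochore protein (9.66), and Espl1, which encodes separase (10.3). The CPM of Mad2l1, the checkpoint protein MAD2, varied least, with a highest level 1.67 times the lowest. Most variable were Mybl2, which encodes B-Myb (18.8 to 147 CPM, 7.78 times), and Ube2c (65 to 389 CPM, 5.99 times).

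The mean log2 CPM of the set was lower with targeting siRNA than with SCR. The drop was larger in clone 12 than in clone 14, save with Qiagen siRNA, where the drops were close. In clone 12 it was 6.56 with Qiagen, 6.47 with Nature, 6.31 with Life, 6.53 with FLAG and 6.61 with HA siRNA, against 6.88 with SCR, and it was 7.11 with leptomycin B, against 7.02 untreated. In clone 14 it was 6.79 with Qiagen, 6.88 with Nature, 6.80 with Life, 6.96 with FLAG and 7.09 with HA siRNA, against 7.10 with SCR, and it was 7.16 with leptomycin B, against 7.00 untreated. All 5 targeting siRNAs lay below SCR in both clones, by the least with HA siRNA in clone 14, which lay above the untreated library of that clone. In untagged clones 18 and 25 it was 6.67 and 6.58 with FLAG siRNA and 6.87 and 6.64 with HA siRNA, against 6.77 and 6.71 with SCR, so the siRNA values lay on both sides of SCR in clone 18.

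**Figure D1:**
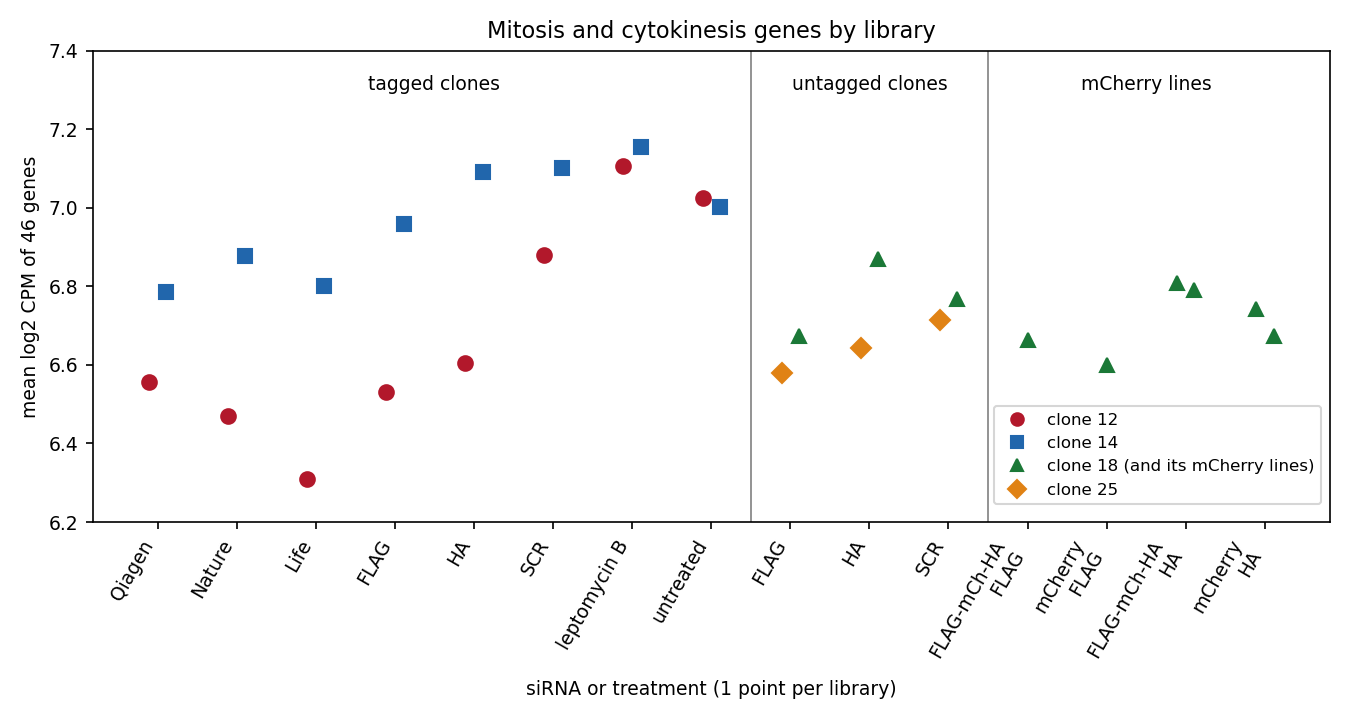
Mean log2 CPM of the 46 genes (vertical axis) in each of the 28 libraries, by siRNA or treatment, with clones shown by colour and shape. The lowest point is Life siRNA in clone 12 at 6.31, and the highest is leptomycin B in clone 14 at 7.16.

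Cyclin D1 siRNA was compared with SCR siRNA in the tagged clones to ask what follows loss of cyclin D1. Mitosis genes were lower throughout: the log2 fold change, averaged over the 3 siRNAs, was negative for 46 of 46 genes in each clone, with a median of -0.35, against 0.02 over all tested genes. Of the 46, 12 fell past the test (26.1%) and 0 rose, where 2.72% of all tested genes were called lower and 5.4% in either direction. They were the mitotic entry genes Cdk1, Ccnb1, Plk1 and Cdc25c, both transcription factors Foxm1 and Mybl2, Bub1, Bub1b and Espl1 of the checkpoint and anaphase, Cdca8 of the chromosomal passenger complex, and Kif20a and Prc1 of cytokinesis. By role, 4 of 9 kinases and cyclins, 2 of 2 transcription factors, 3 of 7 checkpoint genes, 1 of 3 passenger genes, 2 of 7 cytokinesis genes, and 0 of 7 kinetochore genes and 0 of 10 kinesins and spindle factors fell by edgeR. The kinetochore genes ran from -0.35 to -0.13 and the kinesins and spindle factors from -0.40 to -0.18, also all negative. Other genes of the G1 machinery moved as well. Against SCR, Life siRNA lowered Ccnd3, which encodes cyclin D3 (-1.90, adjusted p = 2.86e-05), and Nature siRNA lowered Ccnd2, which encodes cyclin D2 (-2.21, adjusted p = 5.14e-05). Cdkn1a, which encodes the CDK inhibitor p21, fell with cyclin D1 siRNA (-0.86, adjusted p = 0.000218), and with tag siRNA in tagged (-1.53, adjusted p = 2e-06) and in untagged clones (-1.54, adjusted p = 2.91e-06). With SCR it was higher than in untreated cells (1.02, adjusted p = 0.00123), all by edgeR. Their part in the changes of the set was not tested.

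Among genes of mitotic entry, Ccnb1 stood at 244 and 260 CPM with Qiagen, 149 and 230 with Nature and 168 and 257 with Life siRNA in clones 12 and 14, against 289 and 385 with SCR. Each siRNA library lay below the SCR library of its clone (log2 fold change -0.64, SE 0.14, adjusted p = 0.0109; -0.66 and -0.63 in the clones). Cdk1, the kinase that cyclin B activates, had 297 and 246 CPM with Qiagen, 379 and 320 with Nature and 229 and 248 with Life, against 443 and 367 with SCR (-0.51, SE 0.13, adjusted p = 0.0277). Here too no siRNA library reached the SCR level of its clone. Plk1, the polo kinase of mitotic entry and spindle assembly, fell by 0.49 (SE 0.13, adjusted p = 0.0408), and Cdc25c, a phosphatase that activates CDK1, fell by 0.45 (SE 0.12, adjusted p = 0.0355).

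The gene of separase, the protease that cuts cohesin at anaphase, had the lowest log2 fold change of the set. Espl1 stood at 65 and 49.7 CPM with Qiagen, 48.6 and 69.4 with Nature and 69.3 and 63.8 with Life, against 121 and 77 with SCR. The fold change was -0.68 (SE 0.16, adjusted p = 0.0213), at -1.01 in clone 12 and -0.35 in clone 14. The SCR library of clone 12 was the highest of these, while in clone 14 the levels with Nature siRNA and SCR were close. The checkpoint kinase Bub1 fell by 0.37 (SE 0.11, adjusted p = 0.0494) and Bub1b, which encodes the checkpoint protein BUBR1, by 0.45 (SE 0.11, adjusted p = 0.0229).

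In cytokinesis, Kif20a, a kinesin of the central spindle, stood at 232 and 247 CPM with Qiagen, 154 and 208 with Nature and 157 and 161 with Life, against 290 and 286 with SCR. It fell by 0.60 (SE 0.12, adjusted p = 0.00591), the smallest p of the set, and the groups did not overlap. Prc1, which bundles the microtubules of the central spindle, had 216 and 212 CPM with Qiagen, 154 and 207 with Nature and 204 and 226 with Life, against 315 and 294 with SCR. Its groups did not overlap either (-0.59, SE 0.13, adjusted p = 0.0145). The transcription factor Foxm1 fell by 0.45 (SE 0.10, adjusted p = 0.0159) and Cdca8, which encodes the passenger protein borealin, by 0.40 (SE 0.11, adjusted p = 0.0425).

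The direction of cyclin D1 siRNA held for 46 of 46 genes in each alternative run, while the number of calls depended on single libraries. Without SCR clone 12, edgeR called 0 members, with 13 at an unadjusted p under 0.05 and a median of -0.28, and 0.647% of all tested genes were called. DESeq2, run with all libraries, called 15. Without Life clone 12 there were 5 calls, and without SCR clone 14 there were 7. Without the clone block, and likewise with the libraries of this comparison alone, 0 were called by edgeR, with 10 and 26 at an unadjusted p under 0.05.

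**Figure D2:**
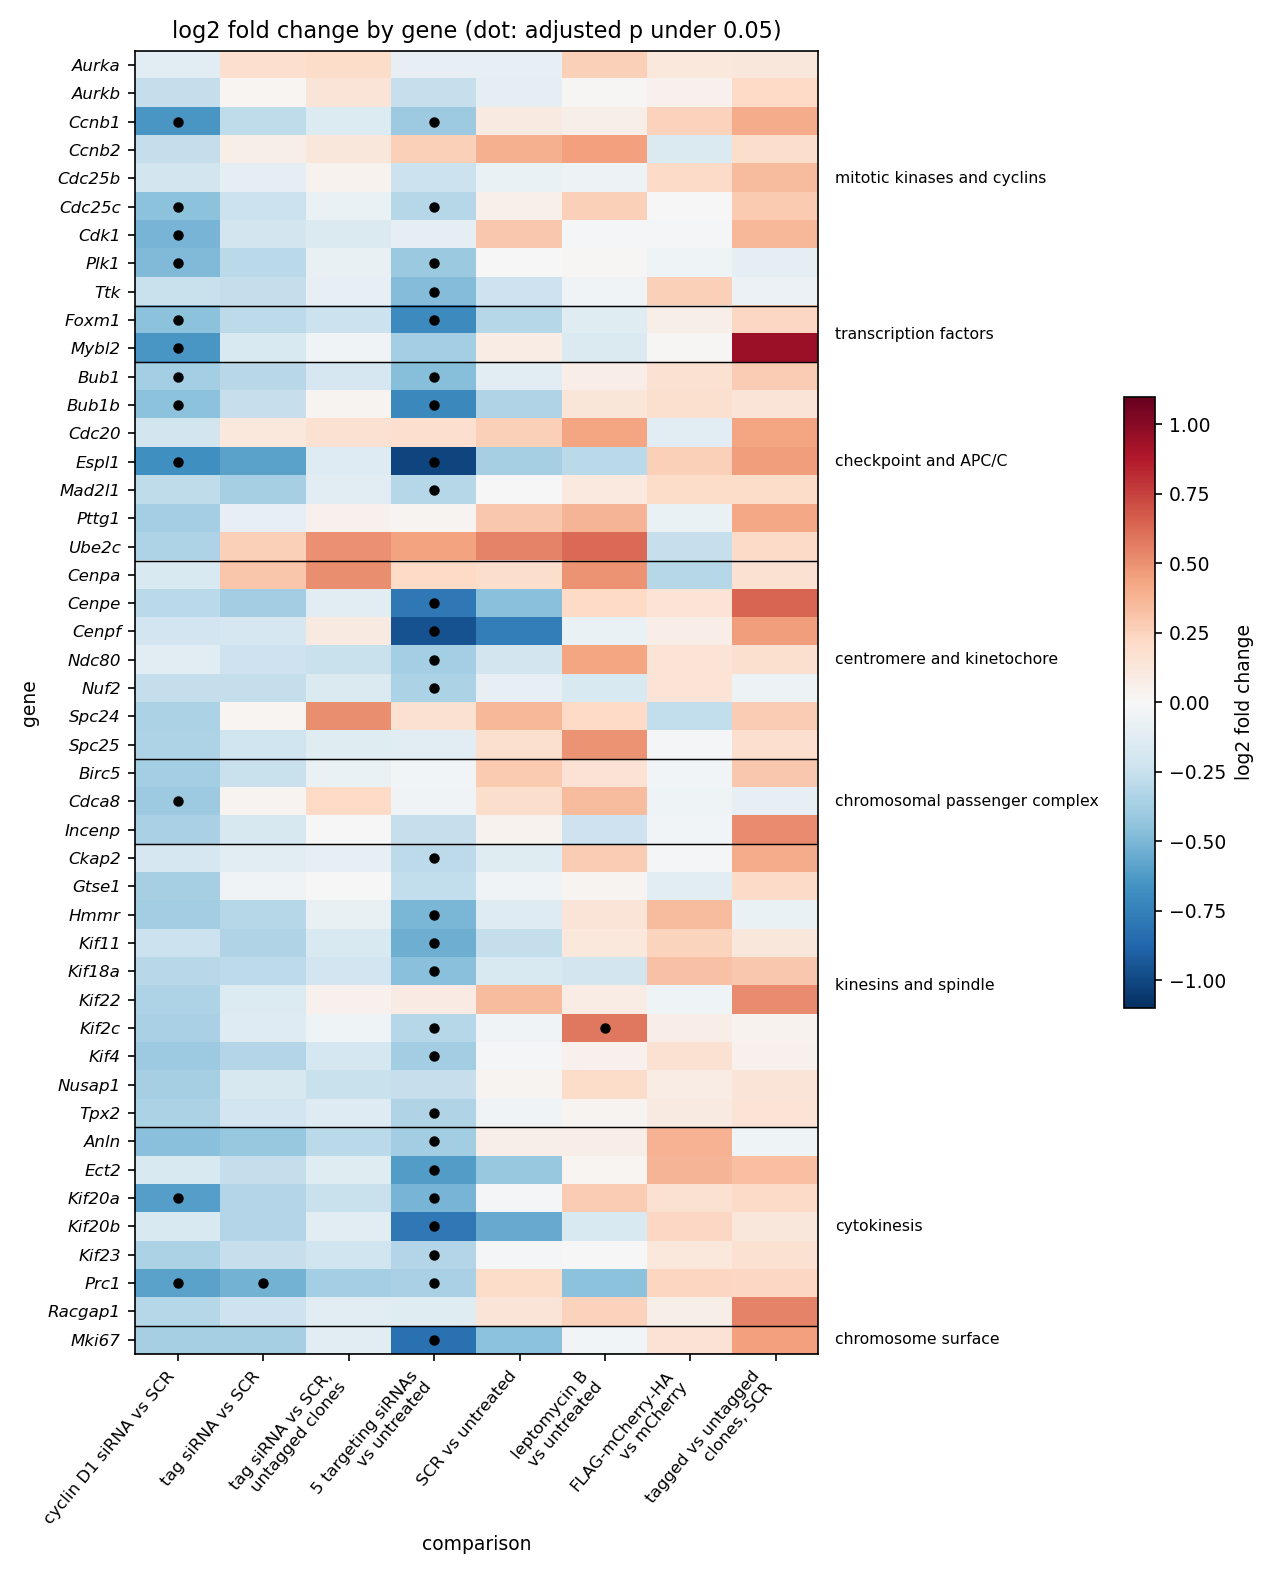
log2 fold change (colour) of each of the 46 genes, in rows by role, for 8 comparisons in columns. Dots mark an adjusted p under 0.05, and the column of cyclin D1 siRNA against SCR is negative for all 46 genes with 12 dots.

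**Figure D3:**
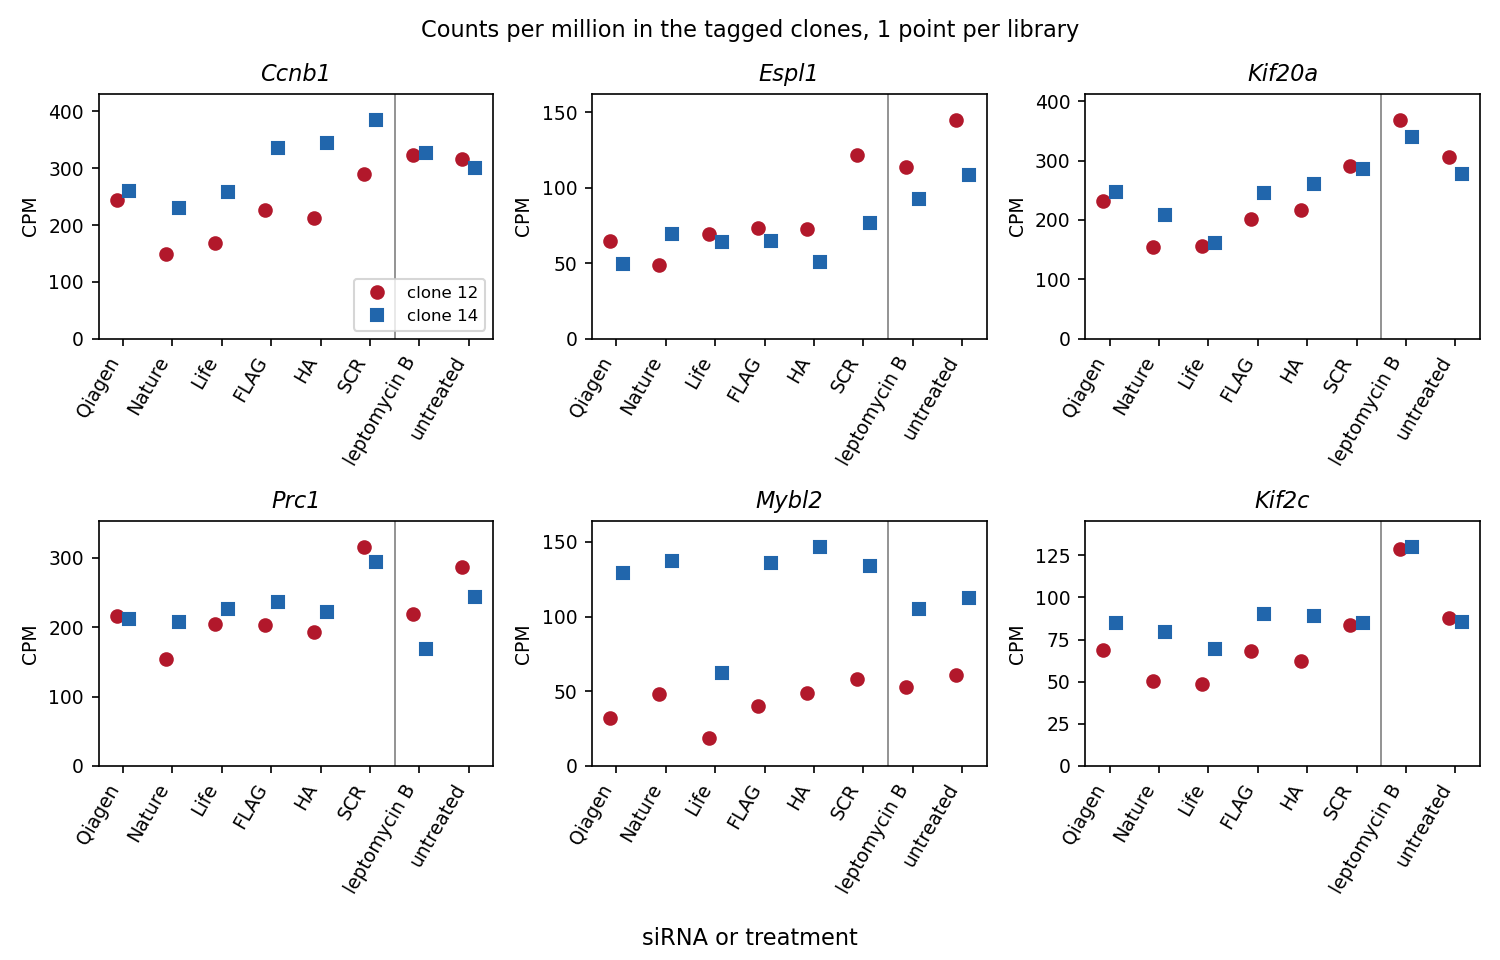
CPM of 6 genes in the 16 libraries of tagged clones 12 and 14, by siRNA or treatment. Kif20a lies below both SCR libraries with each of the 5 targeting siRNAs, Mybl2 drops with Life siRNA in both clones, and Kif2c is highest with leptomycin B.

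Each of the 3 siRNAs was also compared with the same 2 SCR libraries on its own, and the lists of calls are given side by side, since tests between siRNAs follow separately. With Life siRNA 10 of 46 fell and 0 rose (8.29% of all tested genes were called in either direction and 4.32% lower), with a median of -0.43. They were Mybl2, Kif20a, Foxm1, Bub1b, Cdk1, Ccnb1, Bub1, Gtse1, Kif2c and Kif23. With Nature siRNA 8 fell (4.8% of all tested genes were called lower and 8.56% in either direction), with a median of -0.30: Ccnb1, Prc1, Kif20a, Anln, Cdc25c, Espl1, Kif4 and Bub1. With Qiagen siRNA 3 fell (2.53% called lower and 5.33% in either direction), with a median of -0.30: Cdca8, Espl1 and Cdk1. These counts shrank without SCR clone 12, to 2, 1 and 0 (for Qiagen by edgeR, with 6 at an unadjusted p under 0.05 and 5 called by DESeq2 with all libraries). Without Nature clone 12 the Nature count was 0 by edgeR (8 at an unadjusted p under 0.05, and 11 called by DESeq2 with all libraries), and without Nature clone 14 it was 14. Without Life clone 12 or Life clone 14 the Life count was 4 or 5. Without Qiagen clone 12 the Qiagen count was 0 (14 at an unadjusted p under 0.05), and without Qiagen clone 14 or SCR clone 14 it was 1.

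With Life siRNA, B-Myb had the lowest log2 fold change of the set. Mybl2 stood at 18.8 and 62.4 CPM with Life siRNA in clones 12 and 14, against 58.5 and 134 with SCR (-1.36, SE 0.21, adjusted p = 0.000389). With Qiagen it was 31.9 and 129 CPM and with Nature 48 and 137, with FLAG 39.9 and 136 and with HA 49.1 and 147. Life siRNA thus gave the lowest level in each clone, and Life differed from the average of the remaining 4 targeting siRNAs (-1.14, SE 0.17, adjusted p = 0.000301; -1.14 and -1.13 in the clones). Against those 4, Life also lowered Cenpa, the histone of the centromere (-0.70), Kif20a (-0.46), Gtse1 (-0.44), Cdk1 (-0.45), Bub1b (-0.41) and Foxm1 (-0.38), 7 of 46 in all with adjusted p up to 0.0334, where 6.62% of all tested genes were called lower and 14.2% in either direction. That count was 1 without Life clone 12, 2 without Life clone 14, 4 without FLAG clone 14, and 3 without the libraries over 2% Rn45s, which include Life clone 14.

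Qiagen siRNA against the other 4 lowered Cdca8 (-0.37, SE 0.11, adjusted p = 0.0392) and Ube2c (-0.68, SE 0.22, adjusted p = 0.0442), 2 of 46 where 5.72% of all tested genes were called lower and 13.7% in either direction. Ube2c stood at 73.1 and 177 CPM with Qiagen, against 162 and 218 with Nature, 65 and 231 with Life, 122 and 275 with FLAG and 160 and 389 with HA, so Life in clone 12 was lower still. By edgeR the count was 0 without Qiagen, Nature or FLAG clone 12 or FLAG, HA or Life clone 14, with 0 to 7 at an unadjusted p under 0.05, while DESeq2 called 3 with all libraries. It was 1 without HA clone 12 or Qiagen clone 14, and 4 without Nature clone 14. Nature siRNA against the other 4 called 0 members by edgeR, with 7 at an unadjusted p under 0.05, and DESeq2 called 1; 9.93% of all tested genes were called in either direction. Ccnb1 came nearest (-0.43, SE 0.14, adjusted p = 0.0601). The count was 1 without HA clone 12, 2 without Qiagen clone 14 and 3 without Nature clone 14.

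FLAG and HA siRNA were compared with SCR in the tagged clones as a second way to remove cyclin D1. Estimates for mitosis genes leaned lower, and 1 of 46 fell past the test, where 1.83% of all tested genes were called lower and 3.86% in either direction. The log2 fold change was negative for 38 of 46, with a median of -0.23, against 0.03 over all tested genes. That gene, Prc1, stood at 203 and 236 CPM with FLAG and 192 and 221 with HA, against 315 and 294 with SCR, with no overlap (-0.52, SE 0.14, adjusted p = 0.0497). Next came Mad2l1 (-0.36, SE 0.10, adjusted p = 0.0628) and Espl1 (-0.59, SE 0.18, adjusted p = 0.072), which missed the threshold, while Cenpa (0.31) and Ube2c (0.26) ran the other way without a call. The Prc1 call was lost in 10 of 14 alternatives, among them leaving out any of the 6 libraries, with an adjusted p of 0.000705 to 0.577. With the 6 libraries of the comparison fitted alone, 28 members were called, 26 of them lower, but in that fit, with 2 residual degrees of freedom, 24.6% of all tested genes were called.

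FLAG siRNA alone called 0 members by edgeR, with 12 at an unadjusted p under 0.05 and 1 called by DESeq2, where 2.17% of all tested genes were called. HA siRNA alone called 0 by edgeR, with 8 at an unadjusted p under 0.05 and 2 called by DESeq2, where 4.11% of all tested genes were called; without SCR clone 14 it called 1. FLAG and HA differed in 2 genes over tagged and untagged clones: with HA siRNA Birc5, which encodes the passenger protein survivin, was higher than with FLAG (0.57, SE 0.14, adjusted p = 0.0243), and so was Cdc20, the activator of the anaphase-promoting complex (0.45, SE 0.12, adjusted p = 0.0486), where 1.79% of all tested genes were called higher and 3.33% in either direction. Birc5 stood at 200, 254, 228 and 147 CPM with HA in clones 12, 14, 18 and 25, against 132, 150, 178 and 102 with FLAG, higher with HA in 4 of 4 clones. By edgeR 1 of these was called without HA clone 12 and 0 without any other of the 8 libraries, with 3 to 5 at an unadjusted p under 0.05, while DESeq2 called 2 with all libraries.

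In the untagged clones, where the tag siRNAs have no tagged cyclin D1 to act on and Ccnd1 stood at 1014 and 1226 CPM with FLAG and 1293 and 1256 with HA in clones 18 and 25, against 1329 and 1313 with SCR, edgeR called 0 of 46 members. There 5 had an unadjusted p under 0.05, DESeq2 called 0, and 2.68% of all tested genes were called. The median was -0.10, with 33 of 46 negative. Prc1 was at 180 and 173 CPM with FLAG and HA in clone 25, against 232 with SCR, and at 196 and 258 in clone 18, against 290 with SCR (-0.38, SE 0.14, adjusted p = 0.251). Spc24 of the NDC80 complex (0.51, SE 0.17, adjusted p = 0.16) and Cenpa (0.51, adjusted p = 0.229) ran higher in both clones. The difference between the responses of tagged and untagged clones was called for 0 members by edgeR, with 0 at an unadjusted p under 0.05 and 0 by DESeq2. It was negative for 44 of 46 with a median of -0.13, and 1 gene of all tested, Ccnd1, was called (0.00662%).

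Cyclin D1 siRNA and tag siRNA were also compared directly. Of 46 members 4 were lower with cyclin D1 siRNA, where 3.9% of all tested genes were called lower and 6.99% in either direction: Cdca8 (-0.43, SE 0.09, adjusted p = 0.00557), Mybl2 (-0.48, SE 0.13, adjusted p = 0.0284), Ube2c (-0.60, SE 0.17, adjusted p = 0.0343) and Cenpa (-0.47, SE 0.14, adjusted p = 0.0406). Cdca8 stood at 47.1 and 61.5 CPM with Qiagen, 62.6 and 62.6 with Nature and 50.5 and 69.6 with Life, against 65.4 and 78.7 with FLAG and 75.5 and 99.5 with HA, without overlap within either clone. The median of the set was -0.13, with 39 of 46 negative. The count was 6 without Life clone 14, 1 without Qiagen clone 12, Life clone 12 or FLAG clone 14, 2 without FLAG clone 12, and 0 by edgeR without HA clone 14 (7 at an unadjusted p under 0.05, and 8 called by DESeq2 with all libraries).

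**Figure D4:**
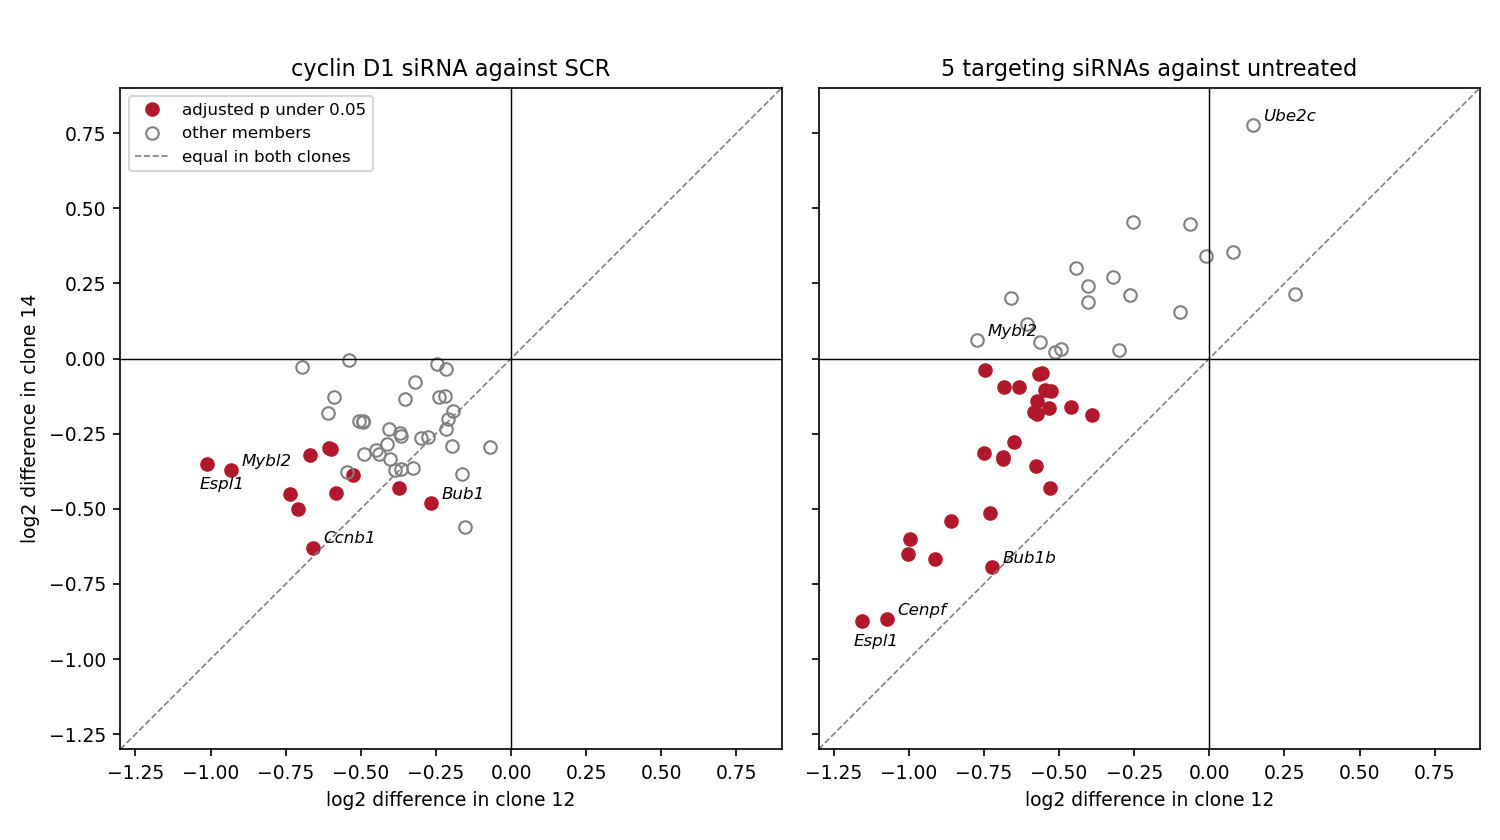
log2 difference in clone 12 (horizontal) and clone 14 (vertical) for each of the 46 genes. With cyclin D1 siRNA against SCR all 46 genes lie in the quadrant that is negative in both clones, and with the targeting siRNAs against untreated cells 27 do, while 45 lie above the dashed line of equal differences.

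Untreated cells gave a second control, from which the 5 targeting siRNAs, averaged, differed widely. Of the 46 members 27 fell (58.7%) and 0 rose, where 17.6% of all tested genes were called lower and 30.5% in either direction, and the median was -0.33, against 0.00 over all. All 27 were negative in both clones. Cytokinesis genes fell in 6 of 7 cases, kinesins and spindle factors in 7 of 10, kinetochore genes in 4 of 7, checkpoint genes in 4 of 7, kinases and cyclins in 4 of 9, transcription factors in 1 of 2, and passenger genes in 0 of 3 by edgeR, and Mki67 fell as well. Transfection itself is part of this comparison, as untreated cells received no siRNA.

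Espl1 fell by 1.01 (SE 0.15, adjusted p = 0.000342). It ranged from 48.6 to 73.3 CPM over the 10 targeting libraries, against 145 and 108 untreated, with no overlap. Cenpf, at 74.6 to 135 CPM, against 214 and 195 untreated, fell by 0.96 (SE 0.18, adjusted p = 0.00142). Mki67, which coats mitotic chromosomes, ranged from 199.97 to 336 CPM, against 471 and 414 untreated, and fell by 0.82 (SE 0.15, adjusted p = 0.00119). These 3 genes did not overlap between the groups, but they were named for the lowest fold changes of the set. How many of all tested genes did not overlap was not counted. Cenpf and Mki67 were not called once the trend on transcript length was removed, as given further on. Then followed Cenpe, the kinesin of the kinetochore (-0.79, adjusted p = 0.00273), Kif20b (-0.78, adjusted p = 0.00125), Bub1b (-0.71, adjusted p = 0.000276), Foxm1 (-0.70, adjusted p = 0.000177), Ect2, the activator of RhoA at the cleavage site (-0.62, adjusted p = 0.00234), Kif11, the kinesin that separates the spindle poles (-0.53, adjusted p = 0.00449), Kif20a (-0.51, adjusted p = 0.00338), Hmmr (-0.50, adjusted p = 0.025), the checkpoint kinase Ttk (-0.48, adjusted p = 0.00172), Bub1 (-0.47, adjusted p = 0.00276) and Kif18a (-0.46, adjusted p = 0.0144). Plk1, Kif4, Tpx2, Nuf2, Mad2l1, Kif23, Ndc80, Ccnb1, Ckap2, Prc1, Anln, Kif2c and Cdc25c fell by 0.29 to 0.41. Ube2c (0.44, SE 0.21, adjusted p = 0.118), Ccnb2, which encodes cyclin B2 (0.26), Cenpa (0.22) and Cdc20 (0.18) ran the other way without a call. Foxm1 and Espl1 were called in each of 20 alternatives, with adjusted p up to 0.0108 and 0.0496. Other calls were less stable: Cdc25c and Kif2c were lost in 16 of the 20, Anln in 15 and Prc1 in 14, with DESeq2 and with relative log expression factors among them for all 4.

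The clones differed in size of change here. In clone 12 the median of the set was -0.57 and 43 of 46 were negative, and in clone 14 it was -0.09 and 27 were negative, a difference that was not tested. Without untreated clone 12 the count of members called was 8, 7 of them lower, and without untreated clone 14 it was 16. SCR siRNA against untreated cells called 0 members by edgeR and 0 by DESeq2, with 7 at an unadjusted p under 0.05 for each tool, where 5.29% of all tested genes were called. The median was -0.01. The lowest were Cenpf, at 124 and 118 CPM with SCR, against 214 and 195 untreated (-0.76, SE 0.25, adjusted p = 0.0859), and Kif20b (-0.55, SE 0.20, adjusted p = 0.108). The labels of untreated and leptomycin B cells of clone 12 carry a date that the others lack, and whether siRNA and untreated cells were taken on the same day is not given.

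Changes against untreated cells ran with transcript length. Over the 46 genes the log2 fold change of the targeting siRNAs against untreated cells had a Pearson r of -0.775 with log2 length of the longest coding transcript, and over 14228 tested genes Spearman's rho was -0.471, both across genes that share the same libraries. Of the 23 members longer than 3162.5 nt, 18 were called, with a median of -0.47, and of the 23 shorter ones 9, with a median of -0.24. Over all tested genes the median was -0.36 in the quartile with the longest transcripts and 0.33 in the shortest. Those quartiles held transcripts of 4646 nt or more and of 1989 nt or less, so they are not matched in length to the long and short members. The median of the long members and that of the short ones each lay below the quartile beside it. How much of either gap comes from the unlike cuts was not tested. The share called among all genes of like length was not counted. Against SCR the same r was -0.138 for cyclin D1 siRNA and -0.648 for tag siRNA, and for SCR against untreated it was -0.692. The value of -0.138 averages unlike siRNAs: alone, r was -0.356 for Nature, 0.146 for Qiagen and 0.0147 for Life siRNA. Over all tested genes Spearman's rho was -0.375 for Nature, 0.113 for Qiagen and 0.0493 for Life. Genes with transcripts of 4646 nt or more were set against those of 1989 nt or less, each gene on its mean over the libraries of that clone. The mCherry lines counted with clone 18. The long genes stood highest by log2 0.57 and 0.40 in the untreated libraries of clones 14 and 12 and 0.46 in FLAG-mCherry-HA with HA siRNA REP1. They stood lowest with Nature siRNA in clone 12 (-0.69). Values of different clones thus have different baselines. With a smooth trend on length taken out of each library, a step chosen after seeing the data, 20 members were called against untreated cells, 16 of them among the 27, and 42 of 46 were negative with a median of -0.29. The fold change of Mki67 was then -0.22 (adjusted p = 0.249), of Cenpf -0.31 (0.0978) and of Cenpe -0.30 (0.117), by edgeR. Espl1 was still called, with a smaller fold change of -0.59 (0.00164), against -1.01 with the trend left in, and so was Foxm1 at -0.48 (0.0013), against -0.70. Bub1b was at -0.60 (0.000237), against -0.71. Mad2l1 changed sign, to 0.17 (adjusted p = 0.367 by edgeR), against -0.31 with the trend left in. Its length was taken as 7557 nt, which exceeds its whole RefSeq span (chr6:66535221-66541107), so its corrected value rests on a doubtful length. For cyclin D1 siRNA against SCR, 21 were called with the trend removed, all 12 of the first count among them. For Nature siRNA alone 13 were called, with 6 of the first 8 among them. For Life it was 16, with all 10 of the first among them, and for Qiagen 6, with all 3. The shares of all tested genes called with the trend removed are not given here, so these counts do not set the members apart from other genes. The part of RNA quality in these differences was not tested.

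**Figure D5:**
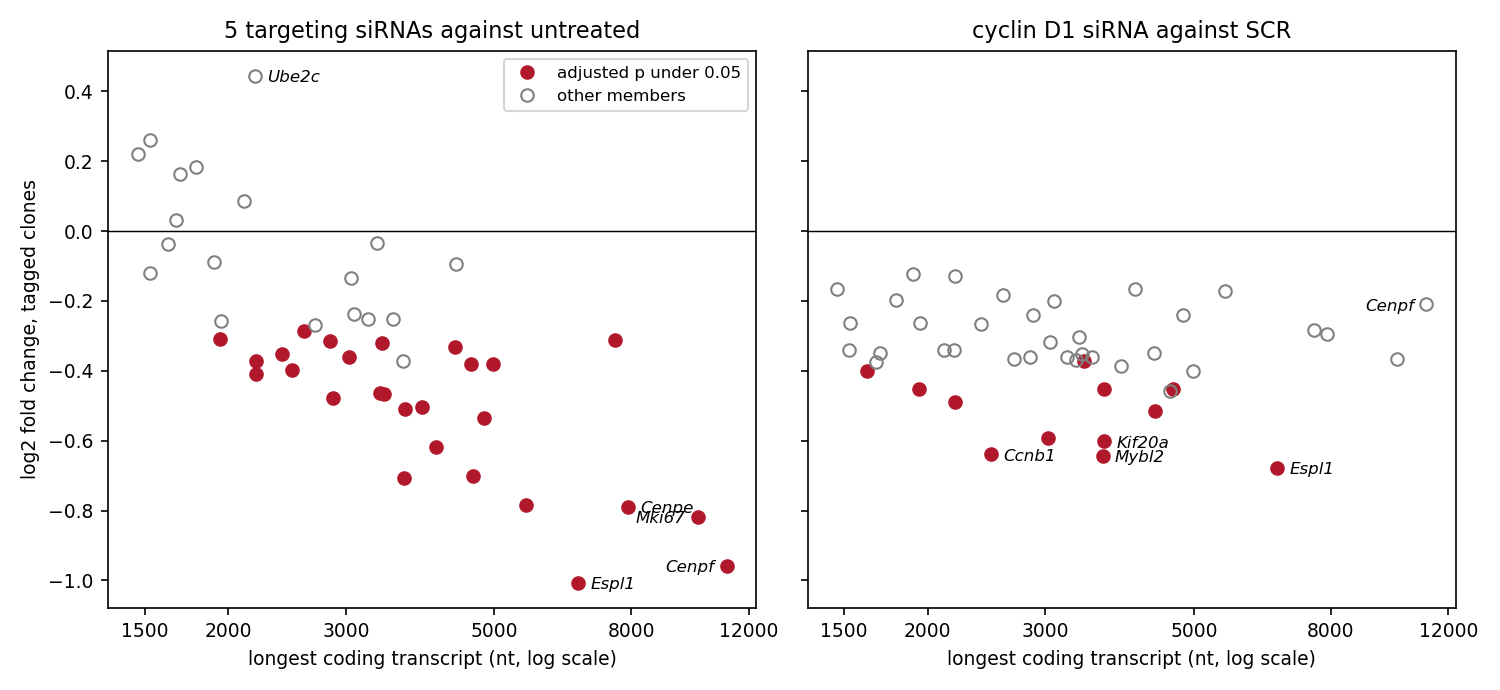
log2 fold change of the 46 genes (vertical) by the length of the longest coding transcript in nt (horizontal, log scale). In the panel of targeting siRNAs against untreated cells the long genes lie lowest (r = -0.775), and in the panel of cyclin D1 siRNA against SCR the values are negative at all lengths (r = -0.138).

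Leptomycin B, which blocks the nuclear export receptor encoded by Xpo1, was compared with no treatment in the tagged clones. Xpo1 itself rose to 1238 and 1193 CPM with leptomycin B, against 701 and 635 untreated (0.87, SE 0.15, adjusted p = 0.00135). Of the 46 members 1 rose and 0 fell, where 4.29% of all tested genes were called higher and 9.99% in either direction. That gene, Kif2c, a kinesin that depolymerises microtubules at the kinetochore, stood at 129 and 130 CPM, against 87.6 and 85.3 untreated, without overlap (0.58, SE 0.15, adjusted p = 0.0219; 0.56 and 0.61 in the clones). The median was 0.08, against 0.03 over all tested genes, with 32 of 46 positive. Kinetochore genes had the highest median of the larger roles at 0.22: Spc25 stood at 87.9 and 78.6 CPM, against 61.7 and 56.8 untreated (0.49, SE 0.18, adjusted p = 0.0911), and Ndc80 at 132 and 100.98, against 100.2 and 72.4 (0.43, SE 0.16, adjusted p = 0.0928), and neither passed the test. Prc1 ran lower, at 220 and 168 CPM, against 287 and 243 (-0.45, SE 0.17, adjusted p = 0.0988), as did Espl1 (-0.29) and Incenp (-0.22). Here too the log2 fold change ran with transcript length, at r = -0.507 over the 46 genes. The median was 0.03 for members longer than 3162.5 nt and 0.26 for the shorter ones. Spc25 (1527 nt) and Ndc80 (2201 nt) are short, as is Prc1 (3026 nt), while Espl1 (6658 nt) is long. The part of length in the order of the roles was not tested. Without leptomycin B clone 12 or untreated clone 14 edgeR called 0 members, with 4 at an unadjusted p under 0.05 in each case and medians of -0.06 and -0.07, and DESeq2 with all libraries called 1. Without untreated clone 12 or leptomycin B clone 14 it called 2. With the 4 libraries of the comparison alone 16 were called, 2 of them lower, but that fit has 1 residual degree of freedom and called 33.4% of all tested genes, a share near that of the members.

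Tagged and untagged clones were compared with SCR siRNA alone, 2 clones against 2 and no block. Estimates leaned higher in tagged clones, for 40 of 46 members with a median of 0.22, against 0.00 over all, and 0 of 46 were called by edgeR, with 0 at an unadjusted p under 0.05; 0% of the 13233 genes tested were called, and DESeq2 called 0 members, with 2 at an unadjusted p under 0.05. Mybl2 had the highest estimate (0.94, SE 0.45, adjusted p = 1), from 58.5 and 134 CPM in tagged clones 12 and 14, against 47.3 and 52.7 in untagged clones 18 and 25. Mybl2 was high throughout clone 14: its 8 libraries, from 62.4 to 147 CPM, all lay above the 60.7 CPM that libraries of the other clones reached at most. Among other high estimates, Cenpe stood at 190 and 182 CPM, against 98.5 and 140. Racgap1, a part of the centralspindlin complex, stood at 324 and 350, against 257 and 206. These genes were named for their high estimates, and neither was called.

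The FLAG-mCherry-HA/PURO construct put the tag epitopes into untagged clone 18 on a protein other than cyclin D1, and mCherry/PURO served as its control without them. FLAG-mCherry-HA against mCherry called 0 of 46 members by edgeR and by DESeq2, where 0% of all tested genes were called, with 4 and 3 members at an unadjusted p under 0.05. The median was 0.09, with 31 positive. The mean log2 CPM of the set was 6.81 and 6.79 with FLAG-mCherry-HA and HA siRNA, against 6.74 and 6.67 in the paired mCherry lines, and 6.66 with FLAG siRNA, against 6.60. Ect2 stood at 219, 191 and 183 CPM with FLAG-mCherry-HA, against 190, 117 and 158 with mCherry (0.37, SE 0.14, adjusted p = 0.529), higher in 3 of 3 pairs without a call. The log2 fold change of the 46 genes ran with transcript length (r = 0.564), with a median of 0.16 for members over 3162.5 nt and -0.01 for the others. Ect2 is among the longer (4086 nt). Its lowest library, mCherry with HA siRNA REP2, had 2.75% of counts on Rn45s and low counts for long genes (-0.59 on the scale used above).

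Other genes of mitosis, and of DNA replication, are given by their counts. Of 92 further mitosis genes, 16 fell and 1 rose with cyclin D1 siRNA against SCR, with a median of -0.33 (2.72% of all tested genes were called lower and 5.4% in either direction). Among them were Kif18b, a kinesin that shortens microtubules (-0.62, SE 0.11, adjusted p = 0.00298), Ccnf, which encodes cyclin F (-0.74, adjusted p = 0.0037), Wee1, the kinase that restrains CDK1 (-0.56, adjusted p = 0.00456), and Nek2 of the centrosome (-0.57, adjusted p = 0.0122). Of 38 genes of the G1/S transition and replication 11 fell and 0 rose, with a median of -0.37. With tag siRNA 6 of the 92 fell and 2 rose, and 4 of the 38 fell, where 1.83% of all tested genes were called lower and 3.86% in either direction. Against untreated cells the targeting siRNAs lowered 43 of the 92 and raised 2, and lowered 14 of the 38, where 17.6% of all tested genes were called lower and 30.5% in either direction. The lowest of the mitosis genes named by the smallest p were Cit, the citron kinase of the cleavage furrow (-1.78, SE 0.28, adjusted p = 0.000482), and Aspm of the spindle poles (-1.07, SE 0.16, adjusted p = 0.000304). Changes in this comparison ran with transcript length, as given above, and the counts for these further lists are without removal of that trend. With leptomycin B 4 of the 92 rose and 4 fell (8.7%), a share near the 9.99% of all tested genes called. Wee1 was at -0.81 with leptomycin B (SE 0.14, adjusted p = 0.00112). Of 11 genes of the MuvB and DREAM complexes, which hold the repressed and active forms of CHR-bound regulators, 2 fell and 1 rose with cyclin D1 siRNA, and 3 fell with tag siRNA.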

How the data were processed

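RNA of mouse cells was read in 28 libraries. The kit was stranded, with poly(A) selection and single reads of 100 bp, per the labels' protocols. The values are raw counts for each gene, which the authors deposited as a single table. The submitters' processing notes name TopHat2 (2.0.13), Bowtie2 (2.2.3), HTSeq (0.6.1p1), CASAVA (1.8.2) and FastQC, with mm10 as the build. The strand setting of HTSeq is not given in the labels, and overlapping genes may therefore share reads. Each column's sample number is also in the sample's description. The table has 22 rows with a symbol and no ID, which were kept. The closest of 378 pairs of libraries differed by a chi-square of 14.6 per degree of freedom, so all 28 counted as separate samples.

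Tests used edgeR 4.0.16 in R 4.3.3, with filterByExpr and TMM factors. A single quasi-likelihood model with robust estimation covered the 15 groups (17 coefficients, 11 residual degrees of freedom). Most groups hold 2 libraries, and all groups share the spread (biological coefficient of variation 14.6%). The clone, or the pair of mCherry lines, was a block because each arm holds the same clones. As a check, the lowest correlation of deviations within a clone was 0.834 over 56 pairs of tagged libraries and 0.862 over 6 pairs of untagged ones. Deviations were from the mean of groups of 2 libraries, 1 from each clone, so the pairs of 1 clone repeat those of the other. A pooled contrast is the mean over its siRNAs. Tagged and untagged clones were compared over 4 SCR libraries without a block. CPM used TMM factors, with a prior count of 2 for log2. SE was taken as |log2 fold change|/√F. Lengths are of the longest coding transcript in GENCODE.

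The members, lists and tests were chosen with earlier results of these data known. Members past the threshold were named, up to 20 by p with values, then up to 4 running the other way. Alternatives were relative log expression factors, other filters, no block, only the libraries compared, DESeq2 1.42.0, no libraries over 2% Rn45s, each library left out, and removal of the length trend. The fit was tested on simulated data.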

Additional observations from a re-analysis of the deposited data

Results flagged for a closer look

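The median log2 difference of the 46 genes between SCR siRNA and untreated cells was -0.14 in clone 12 and 0.10 in clone 14. The median difference between Qiagen siRNA and the average of the other targeting siRNAs was 0.10 in clone 12 and -0.14 in clone 14. Each pair was singled out because the clones ran opposite ways, and neither difference between clones was tested.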

How the results depend on the processing

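The shares of all tested genes called in the alternative fits are not given here, save those stated above, so a moved count is not particular to the set. Counts of members called, from fits of all libraries with the clone block unless said otherwise, moved as follows. Without the replicate block the counts were 0 for cyclin D1 siRNA, tag siRNA, Qiagen and Nature siRNA against SCR, cyclin D1 against tag siRNA, Qiagen and Life against the other siRNAs, HA against FLAG and leptomycin B, and 2 for Life against SCR and for the 5 targeting siRNAs against untreated cells. With only the libraries compared they were 28 for tag siRNA, 0 for cyclin D1 siRNA, 18 for the targeting siRNAs against untreated, 16 for leptomycin B and 2 for SCR against untreated. DESeq2 gave 3 for tag siRNA, 8 for cyclin D1 against tag siRNA, 1 for FLAG, 2 for HA, 5 for Qiagen and 1 for Nature against the other siRNAs. Relative log expression factors gave 0 for tag siRNA and 1 for HA against FLAG. No filter gave 0 for tag siRNA, 5 for Nature and 1 for Qiagen against the others, and the stricter filter gave 2 for tag siRNA. Without libraries over 2% Rn45s the count was 14 for Nature, 1 for Qiagen, 3 for Nature and 3 for Life against the others, and 1 for HA against FLAG. With the length trend removed, chosen after seeing the data, it was 21 for cyclin D1 siRNA, 7 for cyclin D1 against tag siRNA, 1 for tag siRNA in untagged clones, 1 for HA, 6 for Qiagen, 13 for Nature, 16 for Life and 3 for Nature against the others. Mad2l1, whose assumed length of 7557 nt exceeds its RefSeq span, then reversed for the targeting siRNAs against untreated cells, to 0.17 (adjusted p = 0.367 by edgeR), against -0.31 before.

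Leaving out each library in turn gave 0 to 17 calls for cyclin D1 siRNA, 0 to 1 for tag siRNA, 0 to 6 between them, 8 to 29 for the targeting siRNAs against untreated, 0 to 2 for leptomycin B, 0 to 1 for HA, 0 to 1 for Qiagen, 0 to 14 for Nature and 2 to 7 for Life, 0 to 4 for Qiagen, 0 to 3 for Nature and 1 to 8 for Life against the other siRNAs, and 0 to 1 for HA against FLAG. Where this left an arm with 1 library, that library was assumed to vary like the other groups. Apart from the moves that alternatives make by fitting fewer libraries or genes, the cause was not tested. Each member had at least 518 counts in every library, so counting error was small.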
